A study of Mus musculus with 6 samples.

Results

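Translation initiation factors are the proteins that load a messenger RNA and the initiator tRNA onto the small ribosomal subunit and place it on a start codon. Their genes were described here in mouse neutrophils cultured with DKK1 or without it. Members were taken by name: protein-coding genes of the deposited table called Eif1 to Eif6, with the eIF2 kinases (names beginning Eif2ak) left out. That gave 69 of 56884 genes. The 3 DKK1 libraries and the 3 control libraries were made from mature neutrophils, which had been sorted as CD101+ and Ly6G+ cells from bone marrow of mice and then kept in culture. DKK1 (Dickkopf-1) is a secreted inhibitor of Wnt signalling, and the control cells were cultured without it. Neither the labels nor the series' design text gives the mouse strain, age and sex, the dose of DKK1, the time in culture or the number of animals behind a library. Nor do they say whether a group's 3 libraries were separate cultures, so the p-values below measure the spread between libraries, which may be technical.

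As background, initiation begins when eIF2 carries the initiator tRNA as a complex with GTP, and eIF2B recharges eIF2 with GTP after each round. The complex eIF4F recognises the cap of the messenger RNA through eIF4E, unwinds it with the helicase eIF4A and holds both on the scaffold eIF4G. The eIF4E-binding proteins block eIF4E from eIF4G until mTORC1 phosphorylates them, and phosphorylation of eIF2 by stress kinases inhibits eIF2B and lowers initiation in general. The large complex eIF3 joins these parts to the small subunit, and eIF1 and eIF1A govern the choice of start codon. The factor eIF5 acts on eIF2 at the start codon, and eIF5B acts when the large subunit joins. Mature neutrophils are short-lived cells known for a low content of ribosomes.

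The label of the DKK1 libraries could be set against markers of the sorted cells. Ly6g stood at normalized counts of 4.47, 6.87 and 6.53 in the DKK1 libraries, against 1410.0, 1265 and 1338 in the control libraries, and Cd101 at 5.96, 1.37 and 3.27 with DKK1 and 5249, 4902 and 5144 in control. Summed over 12 neutrophil markers the level was 3415 to 3858 with DKK1 and 691378 to 716974 in control, and 11 of the 12 were lower with DKK1 by limma, the exception being Camp, so the DKK1 libraries held far less of the transcripts that define the labelled cell type. Levels of the other marker lists were summed as well. For 14 monocyte and macrophage genes the sums were 15319 to 15453 with DKK1 and 7409 to 7558 in control. Of these genes 4 were higher and 7 lower, and C1qa had no read in the DKK1 libraries. For 8 erythroid genes the sums were 300.5 to 1496 with DKK1 and 1599 to 1742 in control (5 lower). Among them Hba-a2 was highest with DKK1 in library 2, at 228, 555 and 98.8, against 495, 605 and 564 in control. Hbb-bs was so too, at 297, 582 and 117 with DKK1 and 649, 702 and 695 in control. For 8 B cell genes the sums were 42.6 to 116 with DKK1 and 1498 to 1611 in control (7 lower). For 8 T and NK cell genes they were 0 to 2.98 with DKK1 and 48.3 to 79.3 in control (2 lower). Of these genes 5 had no read in the DKK1 libraries, and 2 of the 5, Trbc2 and Ncr1, had none in control either. Cd3d made up most of that control sum, at 65.9, 67.0 and 41.4. For 8 genes of eosinophils, basophils and mast cells they were 124 to 296 with DKK1 and 326 to 336 in control. Of these, Siglecf was lower and made up most of the control sum, at 290, 302 and 285, against 2.24, 1.37 and 0 with DKK1. The 4 higher were Mcpt8, Cpa3, Ms4a2 and Gata2. Prg2 stood at 0, 4.12 and 150 with DKK1 and did not pass. Cd68 alone made up most of the monocyte and macrophage sum with DKK1, at 10245, 10323 and 9794, against 862, 896 and 949 in control. Ly6c2 of the same list was lower, at 32.8, 15.1 and 42.5 with DKK1 and 2457, 2583 and 2474 in control. The part of the marker genes in the results below was not tested. In bulk RNA a change in the share of a cell type and a change in RNA per cell cannot be told apart. Between 5188116 and 8749228 reads were recovered per DKK1 library and between 8688911 and 9851961 per control library. Summed normalized counts were 6738824 ± 336773 with DKK1 and 9729307 ± 39771 in control (SD, n = 3 each). If the libraries are instead scaled to equal total, the median log2 change of the 16265 tested genes moves by 0.47. Under that scaling Camp was higher with DKK1 (log2 change 0.49, limma adjusted p = 0.000908), 5 of the monocyte and macrophage genes were higher and 4 lower, 4 B cell genes were lower and 2 erythroid genes were lower. DKK1 library 2 had the fewest reads and differed most from its own group (chi-square per degree of freedom 12.4 and 11.4 against the other two, beside 2.91 between those).

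Most initiation factor transcripts were more abundant in the cells cultured with DKK1. Of the 69 members, 18 had no read in any library: 16 numbered copies of Eif1ad, the egg-type cap-binding gene Eif4e1b and Eif4a3l1. A mean normalized count of up to 0.911 with DKK1 and 1.06 in control would still be possible for a gene at 0 (a floor of 3 reads over a group, counting error only). Eif4a3l2 had 2 reads, both in DKK1 libraries, and was not tested. The other 50 members passed the filter of a normalized count of 1 in 3 libraries, 49 of them in every library. By limma with Benjamini-Hochberg adjustment over all 16265 tested genes, 37 of these 50 were higher with DKK1, 11 were lower and 2 did not pass. Over all tested genes 35.1% were called higher and 36.1% lower. The median log2 change was 1.56 for the tested members and -0.03 for all tested genes. With equal totals the members gave 39 higher and 6 lower, a median of 2.08, beside 43.6% higher, 29.2% lower and a median of 0.44 for all tested genes.

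The size of the rise differed widely among members. The mean level was at least 4 times as high with DKK1 for 20 of the 50, a size reached by 19.6% of all tested genes. It was at least 2 times as low for Eif4ebp2, Eif2d, Eif4e3, Eif4enif1 and Eif4a2. With equal totals their log2 changes were -2.47, -1.91, -0.92, -0.62 and -0.49, so only Eif4ebp2 and Eif2d kept a fall of that size. The DKK1 libraries all lay above the control libraries for 38 tested members and all below for 11, beside 36.5% and 37.4% of all tested genes. Eif1b alone overlapped. The normalized counts of all members summed to 67614, 76829 and 68968 in DKK1 libraries 1 to 3, against 39614, 39399 and 40008 in control libraries 1 to 3. That was 1.05% ± 0.0210 of all normalized counts with DKK1 and 0.408% ± 0.00383 in control (SD, n = 3 each), and the groups did not overlap. Levels by library are drawn in the dot plot of all tested members, and the changes with their intervals in the plot after it.

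**Figure D1:**
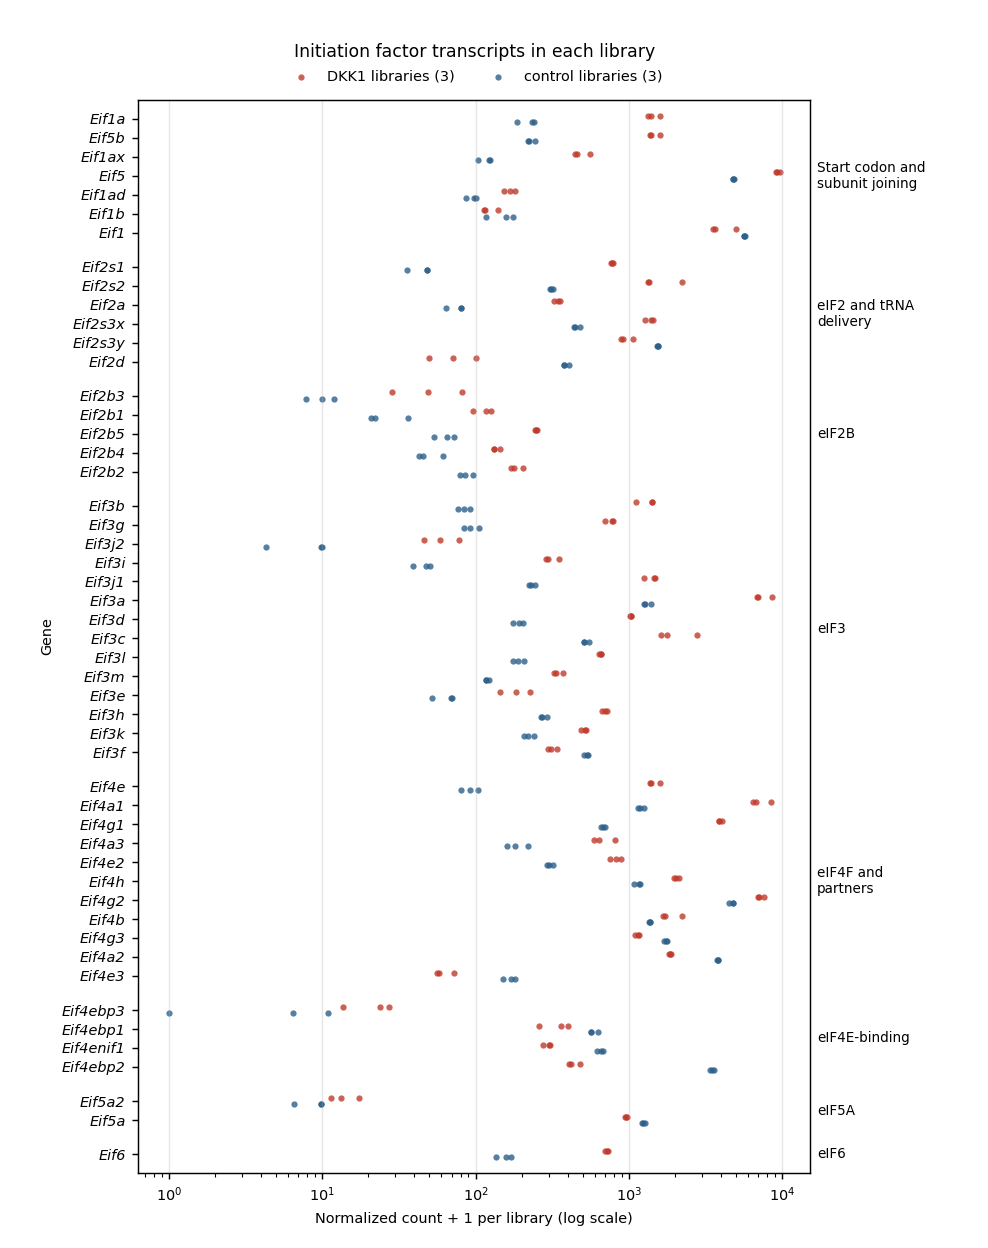
Normalized count plus 1 in each library (log axis) for the 50 tested members, ordered by role and, within a role, by change; each point is 1 library, DKK1 above control. The 3 DKK1 points lie right of the control points for 38 genes and left of them for 11, while those of Eif1b overlap.

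**Figure D2:**
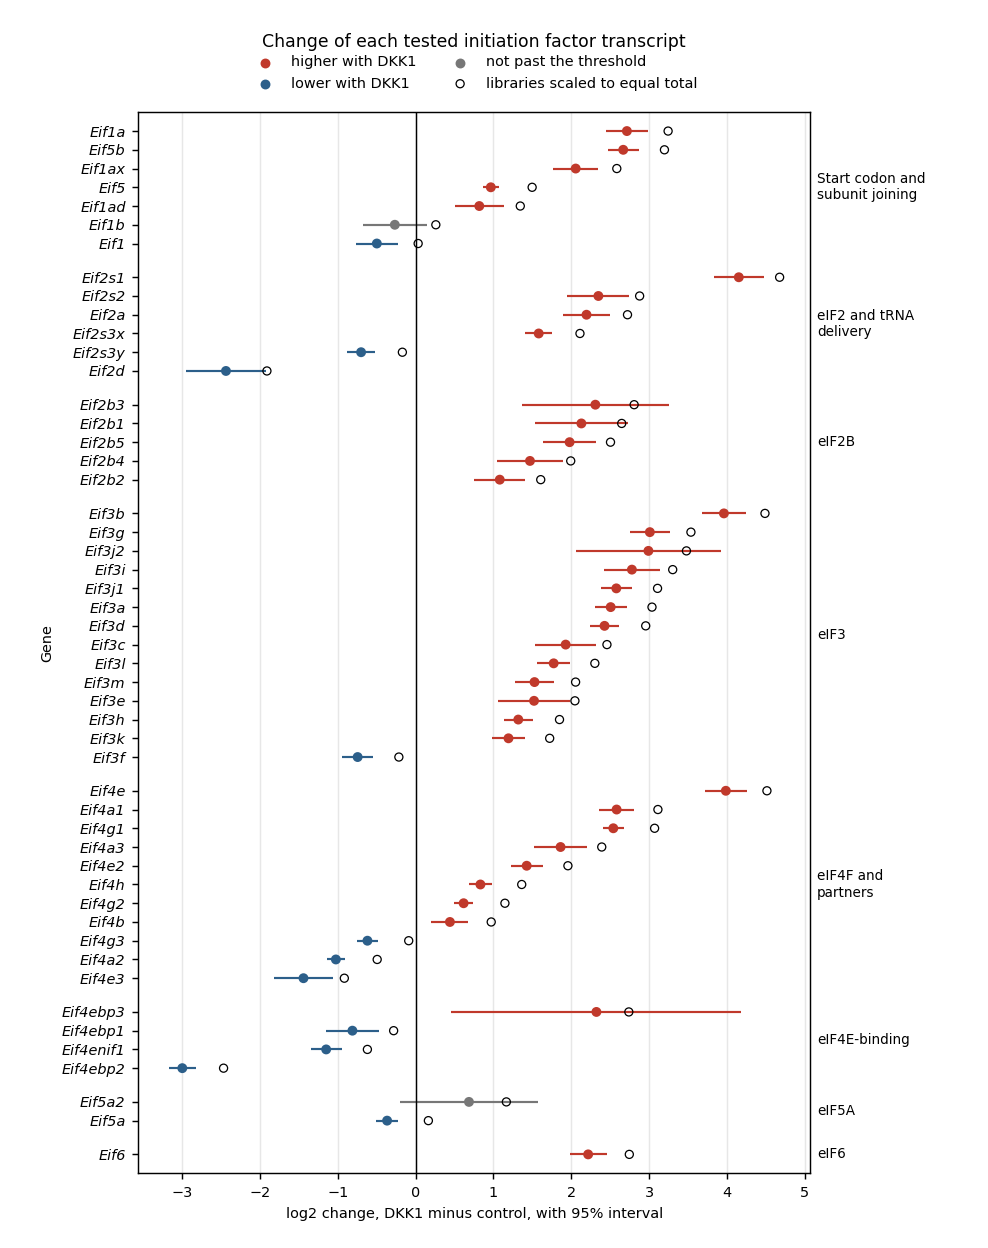
Log2 change (DKK1 minus control) of each tested member with its 95% limma interval, coloured by call, and as open circles the value after scaling all libraries to equal total. Eif2s1 (4.15), Eif4e (3.99) and Eif3b (3.96) rose most and Eif4ebp2 (-3.00) fell most; with equal totals the sign of Eif1, Eif1b and Eif5a turns.

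Among the factors that act at the cap, the gene for the cap-binding protein itself rose most. Eif4e stood at normalized counts of 1378, 1598 and 1391 in the DKK1 libraries, against 79.1, 103 and 91.6 in the control libraries. The groups were far apart, with DKK1 library 2 the highest and no control library above 103. The level was 16.0-fold higher with DKK1 (log2 change 3.99 with an SE of 0.12, limma adjusted p = 3.59e-09). Eif4g1, the main scaffold of eIF4F, stood at 3864, 3901 and 4022 in the DKK1 libraries, against 696, 674 and 653 in the control libraries, which was 5.83-fold higher (log2 change 2.54 with an SE of 0.06, limma adjusted p = 8.44e-10). Eif4a1, the main helicase subunit, stood at 6429, 8452 and 6796 in the DKK1 libraries, against 1146, 1186 and 1258 in the control libraries, again highest in DKK1 library 2 and 6.04-fold higher (log2 change 2.58 with an SE of 0.10, limma adjusted p = 1.94e-08). With DKK1 it was per kb the most abundant member (4073 normalized counts per kb with DKK1 and 675 in control). All 3 genes of the canonical complex rose without overlap between the groups, beside 36.5% of all tested genes that did so. Of their relatives among the members, Eif4a2, Eif4g3 and Eif4e3 were lower by the deposited scaling, and Eif4a3, Eif4g2 and Eif4e2 were higher. Eif4a2, a helicase that shares the partners of eIF4A1, stood at 1865, 1876 and 1836 in the DKK1 libraries, against 3789.7, 3768 and 3788 in the control libraries, 2.03-fold lower (log2 change -1.02 with an SE of 0.05, limma adjusted p = 1.03e-07). Eif4g3, the second scaffold, stood at 1172, 1144 and 1092 in the DKK1 libraries, against 1708, 1745 and 1782 in the control libraries, 1.54-fold lower (limma adjusted p = 1.37e-05), but with equal totals its log2 change was -0.09 and did not pass (limma adjusted p = 0.245). Eif4e3, an atypical relative of eIF4E, stood at 56.6, 71.4 and 54.7 in the DKK1 libraries, against 149, 169 and 181 in the control libraries, 2.73-fold lower.

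Per length of transcript, the order of the helicase pair was turned round. The ratio of Eif4a1 to Eif4a2 in normalized counts per kb was 5.26, 6.88 and 5.65 in the DKK1 libraries, against 0.462, 0.481 and 0.507 in the control libraries, so that Eif4a1 made up 85.4% ± 1.69 of the pair with DKK1 and 32.6% ± 1.03 in control (SD, n = 3 each). The ratio of Eif4g1 to Eif4g3 was 4.75, 4.92 and 5.31 in the DKK1 libraries, against 0.588, 0.557 and 0.529 in the control libraries. Both ratios lay above 1 in every DKK1 library and below 1 in every control library. The exact two-sided permutation test over libraries gave p = 0.1 for each of 8 such ratios, which is the smallest p that 3 libraries against 3 allow, and their adjusted p was 0.1 as well. The ratios were chosen after the values of the genes had been seen.

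The remaining cap-associated members were higher, each by less than Eif4e, Eif4g1 and Eif4a1. Eif4a3, the helicase of the exon junction complex rather than of initiation, stood at 590.3, 812 and 637 in the DKK1 libraries, against 160.3, 218 and 179 in the control libraries, 3.66-fold higher. Eif4e2, a cap-binding protein that represses translation, stood at 754, 894 and 823 in the DKK1 libraries, against 302, 293 and 320.2 in the control libraries, 2.70-fold higher. Eif4h and Eif4b, both of which stimulate eIF4A, were 1.78-fold higher and 1.37-fold higher. For Eif4b the libraries stood at 1718, 2227 and 1673 in the DKK1 libraries, against 1383, 1347 and 1371 in the control libraries, with DKK1 library 2 well above the other two. Eif4g2 (also called DAP5), a scaffold that lacks the eIF4E-binding site, stood at 6963, 7631 and 7031 in the DKK1 libraries, against 4790.1, 4524 and 4773 in the control libraries. Its change was modest, 1.53-fold higher (log2 change 0.62 with an SE of 0.05, limma adjusted p = 6.83e-06).

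The windows upstream of the transcription starts of the eIF4F genes are shown because these 3 genes rose together and each window holds the same 6-base motif. The sequences are from RefSeq (GRCm38.p6), cover the 250 bases before an annotated start and are read 5′ to 3′ on the strand of the gene. Capitals mark CACGTG, the E-box bound by MYC and related factors, which reads the same on both strands. Eif4a2, the copy that fell, is shown beside Eif4a1.
Eif4e (chr3:138527018-138527267, plus strand): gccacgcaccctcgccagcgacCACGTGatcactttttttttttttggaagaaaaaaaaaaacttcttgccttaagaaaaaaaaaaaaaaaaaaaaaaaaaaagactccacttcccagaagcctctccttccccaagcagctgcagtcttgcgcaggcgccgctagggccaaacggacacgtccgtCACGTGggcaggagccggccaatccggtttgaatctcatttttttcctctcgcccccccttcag
Eif4a1 (chr11:69672424-69672673, minus strand): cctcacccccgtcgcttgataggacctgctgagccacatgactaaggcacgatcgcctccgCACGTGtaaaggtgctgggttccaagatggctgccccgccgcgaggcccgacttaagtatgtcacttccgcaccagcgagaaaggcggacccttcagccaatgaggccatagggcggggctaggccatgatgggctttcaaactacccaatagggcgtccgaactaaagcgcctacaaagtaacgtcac
Eif4g1 (chr16:20672477-20672726, plus strand): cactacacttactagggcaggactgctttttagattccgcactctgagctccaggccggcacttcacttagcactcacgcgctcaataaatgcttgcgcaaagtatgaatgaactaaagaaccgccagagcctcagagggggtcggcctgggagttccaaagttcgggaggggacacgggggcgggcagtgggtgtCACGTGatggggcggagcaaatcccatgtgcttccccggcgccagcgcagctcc
Eif4a2 (chr16:23107218-23107467, plus strand): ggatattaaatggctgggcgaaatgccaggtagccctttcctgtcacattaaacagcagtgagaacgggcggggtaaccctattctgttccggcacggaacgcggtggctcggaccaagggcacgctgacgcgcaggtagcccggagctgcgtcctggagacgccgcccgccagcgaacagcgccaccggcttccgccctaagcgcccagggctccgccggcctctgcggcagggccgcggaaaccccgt
The motif begins 228 and 64 bases before the start in Eif4e, 189 before it in Eif4a1 and 54 before it in Eif4g1. Eif4e has another annotated start whose window does not hold it, and it is not in the window of Eif4a2. Promoters of 39 of the 50 tested members were matched by symbol. Counting also the 50 bases after the start, CACGTG was found for 10 of these 39 genes (25.6%), beside 8.09% of the 27025 genes with a promoter and 11.5% of the 10415 that were also tested. Members that rose had it in 6 of 28 cases (Eif3a, Eif3k, Eif4a1, Eif4e, Eif4g1 and Eif4h) and members that fell in 2 of 9 (Eif3f and Eif5a). These are 21.4% and 22.2%. The amino acid response motif TGATGNAAN, searched on both strands, was found for 1 of the 39 genes (Eif2s3x, 2.56%), beside 2.85% of the tested genes with a promoter and 4.50% of all genes with one. A match is a description of the letters and not evidence of binding.

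Of the 4 genes for proteins that bind eIF4E to hold it back or carry it, 3 fell and 1 rose. Over all tested genes 36.1% were called lower and 35.1% higher. Eif4ebp2 stood at normalized counts of 479, 419 and 409 in the DKK1 libraries, against 3571, 3478 and 3385 in the control libraries. Every DKK1 library was below every control library by a wide margin, 7.99-fold lower (log2 change -3.00 with an SE of 0.08, limma adjusted p = 1.45e-09), and this was the largest fall of any tested member. Eif4ebp1, the best-studied eIF4E-binding protein and a target of mTORC1, stood at 397, 259.6 and 358 in the DKK1 libraries, against 564, 626 and 568 in the control libraries, 1.73-fold lower (limma adjusted p = 0.000921). With equal totals its log2 change was -0.28 and did not pass (limma adjusted p = 0.174). Eif4enif1, which carries eIF4E into the nucleus and to P-bodies, stood at 302, 305 and 273 in the DKK1 libraries, against 659, 614 and 679.8 in the control libraries, 2.22-fold lower. Eif4ebp3 was the member of this role that rose. It was near the limit of detection, at 12.7, 26.1 and 22.9 in the DKK1 libraries, against 5.49, 0 and 9.85 in the control libraries, from 64 reads in all DKK1 libraries and 15 in all control libraries. Its call (log2 change 2.32 with an SE of 0.82, limma adjusted p = 0.0297) was lost in 4 of 19 refits (limma adjusted p up to 0.11, with a pseudocount of 0.1), including those without DKK1 library 2 or without DKK1 library 3. Without control library 2, which had no read of it, the log2 change of Eif4ebp3 was 1.30 (limma adjusted p = 0.0426).

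Eif4e was also set against its inhibitors per length. The ratio of Eif4e to the sum of Eif4ebp1 and Eif4ebp2, in normalized counts per kb, was 0.980, 1.58 and 1.11 in the DKK1 libraries, against 0.0176, 0.0225 and 0.0211 in the control libraries. It averaged 1.23 ± 0.315 with DKK1 and 0.0204 ± 0.00253 in control (SD, n = 3 each), a 60.0-fold difference with no overlap. DKK1 library 2 had the highest ratio, while DKK1 libraries 1 and 3 were near 1.

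**Figure D3:**
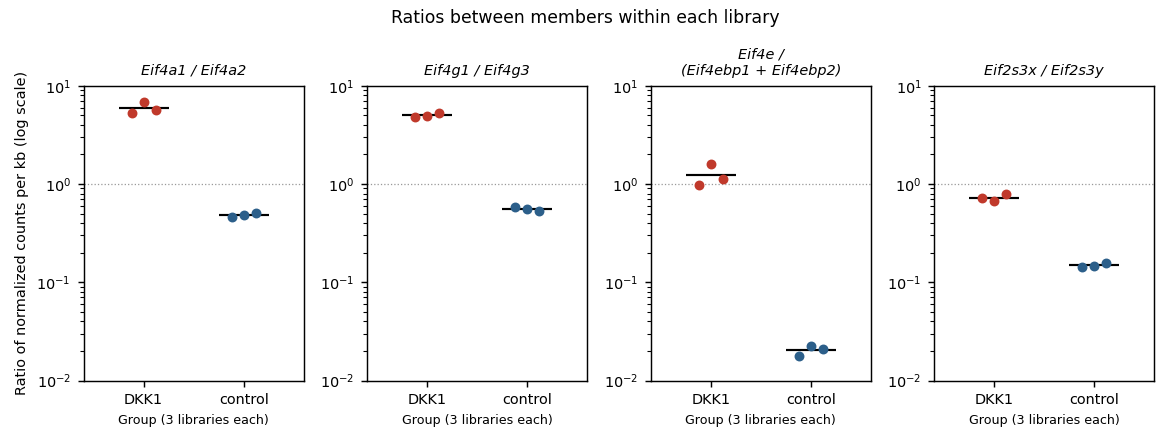
Ratios between members within each library, in normalized counts per kb of transcript (log axis), for Eif4a1 to Eif4a2, Eif4g1 to Eif4g3, Eif4e to the sum of Eif4ebp1 and Eif4ebp2, and Eif2s3x to Eif2s3y; points are libraries, lines are group means and the dotted line marks a ratio of 1. DKK1 libraries lie above control libraries in all 4 panels, on the far side of 1 in the first and second.

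The subunits of eIF2 rose, apart from the copy on the Y chromosome. Eif2s1 encodes the alpha subunit, the one that stress kinases phosphorylate, and stood at normalized counts of 760.2, 782 and 775 in the DKK1 libraries, against 47.2, 46.9 and 34.5 in the control libraries. This was 18.0-fold higher, the largest rise of any tested member (log2 change 4.15 with an SE of 0.14, limma adjusted p = 9.75e-09). Eif2s2, the beta subunit, stood at 1342, 2218 and 1355 in the DKK1 libraries, against 311, 304 and 320.2 in the control libraries, 5.26-fold higher, with DKK1 library 2 far above the other two. Per kb, Eif2s1 stood at 0.371 ± 0.0936 of Eif2s2 with DKK1 and 0.103 ± 0.0196 in control (SD, n = 3 each), so it was the scarcer in both. Eif2a, which can bring initiator tRNA to the ribosome independently of eIF2, was 4.61-fold higher at 323, 346 and 357 with DKK1 and 79.1, 63.7 and 79.8 in control. Eif2d, a factor for reinitiation and the recycling of small subunits, was 5.26-fold lower at 70.8, 100.3 and 49.0 with DKK1 and 407, 374 and 375 in control (log2 change -2.44 with an SE of 0.23, limma adjusted p = 9.76e-06).

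The gamma subunit of eIF2, which binds GTP and the tRNA, is encoded in mice by a pair of genes, Eif2s3x on the X chromosome and Eif2s3y on the Y chromosome. Eif2s3x stood at 1276, 1394 and 1427 in the DKK1 libraries, against 439, 446 and 481 in the control libraries, 3.00-fold higher (log2 change 1.58 with an SE of 0.08, limma adjusted p = 9.43e-08). Eif2s3y stood at 882, 1056 and 918 in the DKK1 libraries, against 1531, 1539 and 1559 in the control libraries, 1.62-fold lower (log2 change -0.70 with an SE of 0.08, limma adjusted p = 3.56e-05). The pair thus moved in opposite directions with no overlap in either gene, beside 36.5% of all tested genes wholly higher and 37.4% wholly lower. The direction of the pair was the same with equal totals (log2 change 2.11 for Eif2s3x and -0.17 for Eif2s3y). Their summed normalized count differed less, at 2318 ± 148 with DKK1 and 1998 ± 36.5 in control. Per kb, Eif2s3x supplied 42.0% ± 2.00 of the pair with DKK1 and 12.9% ± 0.447 in control (SD, n = 3 each). Other sex-linked genes, chosen after these values were seen, were set beside the pair. Uty and Kdm5d, both on the Y chromosome, stood at 148, 198 and 188 with DKK1 and 199.9, 184 and 187 in control and at 180.4, 136 and 164 with DKK1 and 226, 169 and 188 in control, and neither passed (limma adjusted p = 0.502 for Uty and 0.142 for Kdm5d). With equal totals Uty was higher (log2 change 0.42, limma adjusted p = 0.0159). Of their X-linked counterparts, Kdm6a was 3.18-fold lower (log2 change -1.67 with an SE of 0.12, limma adjusted p = 1.14e-06), and Kdm5c did not pass (log2 change -0.16, limma adjusted p = 0.0518) but was higher with equal totals (log2 change 0.38, limma adjusted p = 0.000887). Ddx3y, also on the Y chromosome, was 2.28-fold lower, and its X-linked counterpart Ddx3x was 1.65-fold lower. Xist, which female cells transcribe from one X chromosome, had 2 reads over the DKK1 libraries and 1 over the control libraries.

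All 5 subunits of the exchange factor eIF2B rose, beside 35.1% of all tested genes called higher. Eif2b1, Eif2b2 and Eif2b4 encode the regulatory alpha, beta and delta subunits that sense phosphorylated eIF2, and Eif2b3 and Eif2b5 encode the gamma and epsilon subunits, of which epsilon is the catalytic one. Eif2b5 stood at 244, 249 and 252 in the DKK1 libraries, against 52.7, 71.5 and 64.0 in the control libraries, 3.96-fold higher (log2 change 1.98 with an SE of 0.15, limma adjusted p = 2.08e-06). Eif2b1 stood at 125, 94.8 and 116 in the DKK1 libraries, against 19.8, 21.2 and 35.5 in the control libraries, 4.39-fold higher. Eif2b3 was per kb the lowest of the 5, at 27.6, 48.1 and 80.8 in the DKK1 libraries, against 11.0, 8.94 and 6.90 in the control libraries, and varied most among DKK1 libraries. Eif2b4 stood at 143, 132 and 131 in the DKK1 libraries, against 41.7, 44.7 and 60.1 in the control libraries, 2.77-fold higher. Eif2b2 changed least, at 177, 203 and 169.8 in the DKK1 libraries, against 95.5, 84.9 and 77.8 in the control libraries, 2.13-fold higher. No eIF2B gene overlapped between the groups, beside 36.5% of all tested genes that lay wholly higher with DKK1.

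The eIF3 genes rose in 13 of 14 cases, by 2.29-fold to 15.8-fold, and the exception was Eif3f. Over all tested genes 35.1% were called higher and 36.1% lower. Eif3b, a core subunit that contacts RNA and other factors, stood at 1407, 1109.9 and 1423 in the DKK1 libraries, against 75.8, 90.5 and 82.8 in the control libraries, 15.8-fold higher (log2 change 3.96 with an SE of 0.12, limma adjusted p = 5.4e-09). Eif3g and Eif3i, which bind eIF3b, were 8.11-fold higher and 6.98-fold higher. Eif3a, the largest subunit, stood at 6885, 8576 and 6942 in the DKK1 libraries, against 1396, 1249 and 1277 in the control libraries, 5.71-fold higher, and Eif3c, its partner in the core, at 1616, 2769 and 1782 in the DKK1 libraries, against 513, 509 and 551 in the control libraries, 3.92-fold higher. Both were highest in DKK1 library 2, and for Eif3c that library lay far above the other two. Eif3d, a subunit with cap-binding activity, stood at 1009, 1033 and 1034 in the DKK1 libraries, against 176, 202 and 192 in the control libraries, 5.40-fold higher (log2 change 2.43 with an SE of 0.08, limma adjusted p = 1.05e-08), and Eif3j1, a loosely attached subunit, at 1472, 1262 and 1459.9 in the DKK1 libraries, against 245, 223 and 229.6 in the control libraries, 6.01-fold higher. Eif3j2, a near-identical copy of Eif3j1 from which its reads may not be separable, was far scarcer at 45.5, 57.7 and 76.8 in the DKK1 libraries, against 3.29, 8.94 and 8.87 in the control libraries.

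The other subunits rose less. Eif3l was 3.43-fold higher, Eif3m 2.91-fold higher, Eif3e 2.92-fold higher, Eif3h 2.50-fold higher and Eif3k 2.29-fold higher. Eif3e stood at 182, 144 and 225 in the DKK1 libraries, against 69.2, 51.4 and 68.0 in the control libraries and spread more among DKK1 libraries than the others. Eif3f, which in other cells links eIF3 to mTOR, stood at 338, 298 and 309 in the DKK1 libraries, against 540.3, 507 and 535 in the control libraries, 1.68-fold lower (log2 change -0.74 with an SE of 0.09, limma adjusted p = 4.41e-05), with every DKK1 library below every control library. With equal totals its log2 change was -0.21 and did not pass (limma adjusted p = 0.0819), so the scaling sets whether it fell, and under neither did it rise. The subunit transcripts were unequal in both groups. Per kb and without Eif3j2, they ran from 122 (Eif3e) to 1457 (Eif3a) normalized counts with DKK1 and from 28.2 (Eif3b) to 255 (Eif3a) in control, with medians of 446 and 97.7. Eif3b stood at 446 per kb with DKK1, in the middle of the 13, and was the lowest of the 13 in control. Eif3f stood at 125 per kb with DKK1, beside 209.8 in control. The ratio of Eif3b to Eif3f per kb was 3.56, 3.18 and 3.94 in the DKK1 libraries, against 0.120, 0.152 and 0.132 in the control libraries.

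**Figure D4:**
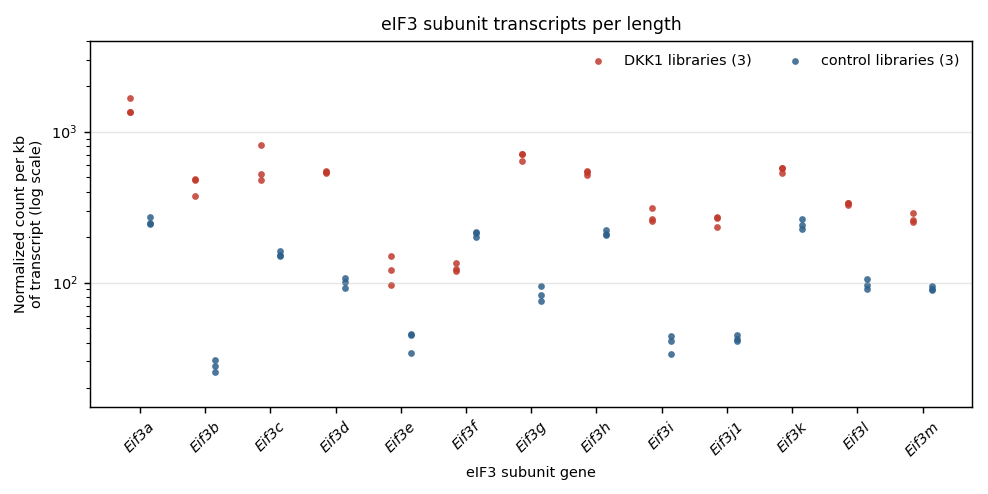
Normalized count per kb of transcript (log axis) of 13 eIF3 subunit genes in each library, DKK1 left of control; Eif3j2 is left out. DKK1 libraries lie above control libraries for 12 genes and below for Eif3f, which with equal totals did not pass (log2 change -0.21), and Eif3b is in the middle of the 13 with DKK1 and the lowest subunit in control.

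Factors of start codon selection split. Eif1, which keeps scanning ribosomes from starting at poor sites, was per kb the most abundant member in control (4298 normalized counts per kb there, 3084 with DKK1) and stood at 3644, 5030.4 and 3555 in the DKK1 libraries, against 5671, 5651 and 5725 in the control libraries. It was 1.39-fold lower by the deposited scaling (log2 change -0.50 with an SE of 0.12, limma adjusted p = 0.00428), but with equal totals its log2 change was 0.03 (limma adjusted p = 0.758) and by quantile normalization 0.08, so its direction rests on the scaling. Its close copy Eif1b stood at 113, 139 and 115 in the DKK1 libraries, against 115, 156 and 175 in the control libraries and did not pass (log2 change -0.27, 95% interval -0.68 to 0.14, limma adjusted p = 0.214). Without control library 1 it did pass (log2 change -0.44, limma adjusted p = 0.0428), while with equal totals the sign turned (log2 change 0.26). The eIF1A genes rose instead. Eif1a stood at 1333, 1606 and 1403 in the DKK1 libraries, against 240.5, 187 and 233 in the control libraries, 6.57-fold higher (log2 change 2.72 with an SE of 0.12, limma adjusted p = 4.44e-08), and Eif1ax, the copy on the X chromosome, at 558, 462 and 443 in the DKK1 libraries, against 122, 123 and 103 in the control libraries, 4.20-fold higher. Summed, they stood at 0.198 ± 0.0234 of Eif1 per kb with DKK1 and 0.0231 ± 0.00216 in control (SD, n = 3 each). Eif1ad, a gene with an eIF1A-like domain, was 1.77-fold higher.

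The genes for eIF5, which acts at the start codon, and eIF5B, which acts at subunit joining, rose. Eif5, which makes eIF2 hydrolyse its GTP at the start codon, stood at 9176, 9286 and 9627 in the DKK1 libraries, against 4768, 4835 and 4762 in the control libraries, 1.96-fold higher (log2 change 0.97 with an SE of 0.04, limma adjusted p = 7.22e-08). Eif5b, the GTPase that joins the large subunit, stood at 1383, 1587 and 1395 in the DKK1 libraries, against 217, 223 and 242 in the control libraries, 6.39-fold higher (log2 change 2.67 with an SE of 0.09, limma adjusted p = 7.03e-09). Neither gene overlapped between groups, beside 36.5% of all tested genes wholly higher with DKK1, and libraries within a group lay close together. Eif6, which keeps free large subunits from joining early and is needed to make them, stood at 719, 731 and 695 in the DKK1 libraries, against 135, 169 and 157 in the control libraries, 4.66-fold higher (log2 change 2.22 with an SE of 0.10, limma adjusted p = 7.91e-08). Eif5a, named for initiation but now known as a factor of elongation and termination, stood at 956, 977 and 948 in the DKK1 libraries, against 1210.2, 1238 and 1265 in the control libraries, 1.29-fold lower (log2 change -0.37 with an SE of 0.06, limma adjusted p = 0.000498). With equal totals Eif5a passed in the opposite direction (log2 change 0.16, limma adjusted p = 0.039), and by quantile normalization its log2 change was 0.08, so this gene too has no direction independent of the scaling. Eif5a2 was barely detected, at 10.4, 16.5 and 12.2 in the DKK1 libraries, against 8.79, 5.59 and 8.87 in the control libraries, and did not pass (log2 change 0.69, 95% interval -0.20 to 1.57, limma adjusted p = 0.143). With equal totals it was higher (log2 change 1.17, limma adjusted p = 0.0211).

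The genes that act on these factors changed as well. Of 9 genes of the eIF2 kinases and their partners, 5 were higher with DKK1 and 4 lower, beside 35.1% and 36.1% of all tested genes. Eif2ak3 (PERK), the kinase of endoplasmic reticulum stress, stood at 55.9, 48.1 and 54.7 in the DKK1 libraries, against 1809.8, 1843 and 1811 in the control libraries, 34.4-fold lower (log2 change -5.08 with an SE of 0.09, limma adjusted p = 2.66e-10). Eif2ak2 (PKR), an interferon-induced kinase activated by double-stranded RNA, stood at 49.2, 74.2 and 44.1 in the DKK1 libraries, against 909, 893 and 837 in the control libraries, 15.8-fold lower. Both kinases fell with no overlap between groups, beside 37.4% of all tested genes that lay wholly lower with DKK1. Eif2ak4 (GCN2), the kinase of amino acid shortage, was 2.41-fold higher at 55.9, 90.7 and 73.5 with DKK1 and 24.2, 27.9 and 39.4 in control, and Eif2ak1, the heme-regulated kinase, was 1.16-fold higher (log2 change 0.21 with an SE of 0.08, limma adjusted p = 0.0345). The call of Eif2ak1 was not kept under every alternative (limma, edgeR and DESeq2 adjusted p from 2.32e-05 to 0.129). Impact, which inhibits GCN2 through its activator GCN1, stood at 3704, 4430.1 and 3936 in the DKK1 libraries, against 430.5, 529.5 and 527 in the control libraries, 8.12-fold higher. Gcn1 was 2.83-fold higher. The phosphatase subunit genes that return eIF2 to its active form differed in direction. Ppp1r15a, the stress-induced one, stood at 2247, 3342 and 2201 with DKK1 and 931, 1043 and 1099 in control, 2.53-fold higher, and Ppp1r15b, the constitutive one, was 2.20-fold lower. Eif2ak1, Eif2ak4, Ppp1r15a and Ppp1r15b were named after their values were seen.

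Of 18 genes of mTORC1 and cap-binding control, 9 were higher, 5 lower and 4 did not pass, beside 35.1% higher and 36.1% lower of all tested genes. With equal totals 13 were higher and 5 lower, beside 43.6% and 29.2%, so the number lower was near the share over all genes under both scalings. Larp1, which binds messenger RNAs of the translation machinery downstream of mTORC1, stood at 1554, 1707 and 1626 in the DKK1 libraries, against 219.6, 173 and 177 in the control libraries, 8.57-fold higher. Rptor, the substrate-binding subunit of mTORC1, was 6.74-fold higher, and Tsc1, a subunit of the complex that inhibits it, was 4.72-fold higher. Among the 5 that fell, Mknk1, a kinase of eIF4E, was 3.72-fold lower, and Pdcd4, an inhibitor of eIF4A, was 5.67-fold lower at 72.3, 94.8 and 58.0 with DKK1 and 416, 451 and 409 in control. The others were Mknk2, Rps6kb2 and Paip2, an inhibitor of poly(A)-binding protein. Pabpc1, the poly(A)-binding protein itself, stood at 4764, 4525 and 4634 with DKK1 and 4204, 4296 and 4322 in control and did not pass (limma adjusted p = 0.052), but was higher with equal totals (log2 change 0.65, limma adjusted p = 7.37e-06). Pabpc1, Pdcd4, Mknk2, Rps6kb2 and Paip2 were named after their values were seen.

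Other initiation and recycling factors rose in 5 of 7 cases, with 1 lower (Ddx3x) and 1 that did not pass (Mcts1), beside 35.1% higher and 36.1% lower of all tested genes. Abce1, the ATPase that splits ribosomes for a new round, stood at 1333, 1251 and 1316 in the DKK1 libraries, against 62.6, 50.3 and 46.3 in the control libraries, 24.5-fold higher (log2 change 4.60 with an SE of 0.13, limma adjusted p = 2.24e-09). Denr stood at 1433, 2234 and 1574 in the DKK1 libraries, against 169, 187 and 188 in the control libraries, 9.64-fold higher, whereas Mcts1, whose protein pairs with DENR, stood at 74.5, 81.0 and 83.3 with DKK1 and 93.3, 107 and 77.8 in control (limma adjusted p = 0.306). The helicase gene Dhx29 was 3.69-fold higher. Mtif3, a mitochondrial initiation factor and the smallest rise of the 5 (log2 change 0.41, limma adjusted p = 0.0346), did not keep its call under every alternative (limma, edgeR and DESeq2 adjusted p up to 0.101). Of 12 tested genes of elongation, termination and hypusination, 10 were higher, 1 lower and 1 (Eef1b2) did not pass, beside 35.1% higher and 36.1% lower of all tested genes. With equal totals Eef1b2 was higher too (log2 change 0.51, limma adjusted p = 0.000515), which gave 11 higher and 1 lower. Gspt1 and Etf1, the release factors of termination, were 6.19-fold higher and 3.61-fold higher, Gspt1 at 995, 1045 and 992 with DKK1 and 172, 158 and 159.6 in control. Eef1a1, which delivers tRNA in elongation, was 2.33-fold higher at 13483, 13603 and 13902 with DKK1 and 5986, 5808 and 5807 in control. Eef1e1 stood at 233, 159 and 238 in the DKK1 libraries, against 6.59, 5.59 and 4.93 in the control libraries, 36.9-fold higher, and its product belongs to the tRNA synthetase complex. Dohh and Dhps, the enzymes that place hypusine on eIF5A, were 14.8-fold higher and 3.96-fold higher, and Dohh stood at 179, 218 and 162 with DKK1 and 14.3, 6.70 and 16.7 in control. The member that fell was Eef2k, the kinase that inactivates elongation factor 2, at 7.45, 17.9 and 4.90 in the DKK1 libraries, against 647, 674 and 671 in the control libraries, 65.9-fold lower. Mcts1, Mtif3, Dohh, Dhps, Eef1b2 and Eef2k were named after their values were seen.

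**Figure D5:**
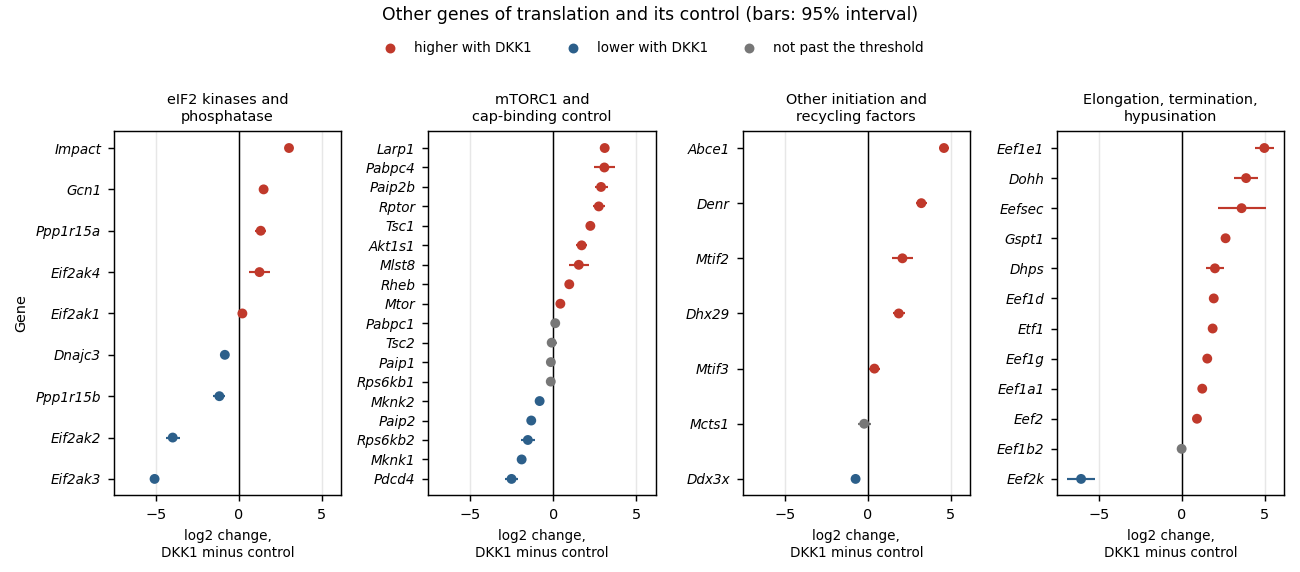
Log2 change (DKK1 minus control) with 95% limma intervals for tested genes of 4 lists that act with or on initiation factors, coloured by call. Abce1 (4.60) and Eef1e1 (4.96) lie at the high end, and Eif2ak3 (-5.08) and Eef2k (-6.08) at the low end.

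Libraries of a group lay close together for most members. The SD was a median of 8.58% of the mean with DKK1 and 6.50% in control over the 50 tested members. DKK1 library 2 was the highest of its group for 26 of them (52.0%), beside 37.5% of all tested genes, and for 5 it was at least 1.3 times both others (Eif2d, Eif2s2, Eif3c, Eif5a2 and Eif1). Without DKK1 library 2 there were 36 tested members higher and 11 lower, with a median log2 change of 1.63. In GENCODE M21 on GRCm38 (mm10), matched by gene identifier without its version, Eif4e lies on chromosome 3, 138526179 to 138559696, plus strand, and Eif4ebp2 on chromosome 10, 61428491 to 61452661, minus strand. Eif2s1 lies on chromosome 12, 78861819 to 78887010, plus strand, and Eif3b on chromosome 5, 140419328 to 140443360, plus strand. Eif2s3x lies on chromosome X, 94188707 to 94212862, minus strand, and Eif2s3y on chromosome Y, 1010543 to 1028847, plus strand. Some values carry a limit of assignment, since no source used here gives the strandedness of the libraries. Exons of Eif5b, Eif3d, Eif3j1, Eif1ad and Eif2b4 overlap those of a gene on the opposite strand (Rev1, Gm17638, Spg11, Banf1 and Snx17) to the greatest length. Eif4a2, Eif1b, Eif6, Eif3m, Eif2d and Eif2a do so over shorter stretches. Eif4ebp3 and Eif4e3 share the longest stretches with another gene on their own strand. Eif4a1, Eif4a2, Eif4g1, Eif4g2, Eif4e, Eif5, Eif3j1 and Eif3j2 share shorter ones. The processed pseudogene Eif4a-ps4 had 158 reads over the DKK1 libraries and 11 over the control libraries, and its reads may not be separable from those of the eIF4A genes.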

How the data were processed

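RNA was sequenced in bulk from 3 DKK1 and 3 control libraries. The deposited table gives, per the file headers, a normalized count for each gene and library, treated here as a signal on a linear scale; the genome build was mm10, per the submitters' processing notes, and no source used here names the aligner or counter. Columns of 3 further libraries matched no sample label and were not used. Each value was a whole multiple of what 1 read is worth in its library, within 0.001 reads, for 100% of values, which gave the recovered reads. The main test was limma 3.58.1 (R 4.3.3), with trend and robust settings, on log2(normalized count + 1) for genes at 1 or more in at least 3 libraries, with Benjamini-Hochberg adjustment over all of them and a threshold of 0.05. Adding the pseudocount understates changes of low genes. Folds are ratios of group means and log2 changes are limma's. Levels per kb divide by the longest protein-coding transcript in GENCODE M21. Alternatives used edgeR 4.0.16 and DESeq2 1.42.0 on the recovered reads, other scalings, filters and pseudocounts, and leaving out each library. edgeR with TMM was chosen after seeing the data. The scripts were tested on simulated data. Members and lists were chosen with earlier results of these data known. Any member could be named; those of smallest adjusted p in each role were given in every library, and up to 4 of smallest adjusted p were named in each other list. Further genes named are said to be so, or are members outside that rule. Figures used matplotlib 3.10.9, and exact tests scipy 1.17.1.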

Additional observations from a re-analysis of the deposited data

How the results depend on the processing

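Over 19 alternatives, 935 of 950 values for single members kept their direction and their side of the threshold, 8 lost the call, 2 gained it and 5 turned sign, and 47 of 50 members kept their direction in every alternative. The counts of 37 higher and 11 lower were the same by edgeR and DESeq2 on the recovered reads, where the count of all tested genes higher with DKK1 was 5642 by edgeR and that of all tested genes lower with DKK1 was 5755. The median log2 change of 1.56 became 1.43 with a pseudocount of 10, 1.86 with quantile normalization and 2.08 with equal totals. The number lower became 6 with equal totals and 5 when a log2 change of at least 1 was required. With equal totals the log2 change was 0.16 for Eif5a, 0.033 for Eif1 and 0.26 for Eif1b, and with quantile normalization 0.083 for Eif5a and 0.079 for Eif1; the cause was not tested. Leaving out each library in turn gave 36 to 37 higher, 11 to 12 lower and medians of 1.47 to 1.63, the lowest without control library 2. Over all genes it gave 5409 to 5651 higher and 5483 to 5895 lower. Correlations of deviations from the group means were -0.00517, 0.00659 and 0.0172 between libraries of the same replicate number. Between libraries of unlike number they were -0.0177 to 0.0107. With 3 libraries per group these values cannot show whether same-numbered libraries shared an animal or a day, which the labels do not give. The fit with the replicate number as a block called 37 higher and 11 lower. Depth limits Eif4ebp3, Eif5a2, Eif2b3 and Eif3j2, which had few reads.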
